A study of Mus musculus with 6 samples.

Results

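A total of 8 genes, whose proteins carry dietary fat, vitamin A, sugar and iron through the absorptive cells of the upper small intestine, were examined. They were Fabp1, Rbp2, Apoc3, Slc2a5, Slc2a2, Khk, Slc11a2 and Slc40a1. They were chosen by name, with earlier results of these data known, so the choice was not blind. Every array probe whose accession maps to 1 of these 8 symbols was kept, without use of its values. That gave 9 probes, with 2 for Khk and 1 for each of the other genes, of 41006 probes and 12354 named genes on the array. RNA came from crypts, pockets of the intestinal wall between the villi where new cells are made, cut by laser microdissection from sections of the middle of the small intestine of C57BL/6 mice aged 120 days. The 3 LOI(+) mice had inherited from their mother a chromosome without H19, a deletion of 3 kb for the gene and 10 kb of upstream sequence with the differentially methylated region, which per the series' design activates the maternal copy of Igf2. The 3 LOI(-) mice were wild type, had the same age and strain background and came from the same kind of cross, with the mutation carried by the mother. The deletion is in the germ line, so it is not limited to the crypt, and LOI stands for loss of imprinting of Igf2. Each mouse had 1 array, with its crypt RNA in the Cy3 channel and, in the Cy5 channel, a common reference RNA pooled from 11 mouse cell lines, among them a liver line. Of the 6 mice 4 were labelled male, and LOI(+) 2 and LOI(-) 3 had no sex label. All levels below are log2 of Cy3 over Cy5 after background correction and normalization within each array, and differences are LOI(+) minus LOI(-). A level of 0 means a ratio on the array's own trend, not equal raw brightness of crypt and reference. Spots dim in both channels can also fall near 0.

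Absorption of nutrients is the work of enterocytes, which are born in the crypt and mature as they move up the villus, the finger of tissue above it. Along the length of the gut most of these genes are known to be strongest in the duodenum and jejunum, while bile acid uptake belongs to the ileum at the lower end. Their levels in a crypt sample can therefore depend on where along the gut the piece was taken and on how much of the villus base was cut with the crypt. The 8 genes follow in 3 roles, fat and vitamin A handling, sugar handling and iron handling.

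Median Cy3 signals were 552 to 603 scanner units on the 6 arrays, highest in LOI(-) 1 and lowest in LOI(-) 2. The local background was 387 to 391, so most of these medians was background. Raw Cy3 signals and summed Cy3 signals below were not scaled between arrays. LOI(+) 2 had the lowest mean correlation with the other arrays across probes, 0.948, and the most features marked as outliers, 146. Every spot of the 9 probes was marked as well above background in both channels on all 6 arrays, and 0 of them were saturated or outliers. Igf2 had a log2 ratio of 0.089 ± 0.020 in LOI(+) and 0.092 ± 0.064 in LOI(-) crypts (SD, n = 3 each), a difference of -0.0024 ± 0.058 (SE). Whether its signal was above the negative controls is not given here, so ratios near 0 do not show that Igf2 was unchanged. H19 was not analysed here, so it gave no check of the labels. The image files were extracted in an order that put all LOI(-) arrays first, so that order and the group cannot be told apart.

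Fatty acid carrier Fabp1, retinol carrier Rbp2 and apolipoprotein Apoc3 had the largest differences, with means 0.58 to 0.74 higher in LOI(+) crypts, while the sugar and iron genes lay between -0.16 and 0.33. A total of 7 of the 8 genes, and 8 of the 9 probes, had a higher mean in LOI(+) crypts, against 52.8% of named genes and 51.0% of all probes. The exception was Slc40a1. None of the 9 probes passed the test. In limma with Benjamini-Hochberg adjustment over all 41006 probes, 0 probes of the array had an adjusted p under 0.05 (0.0%), and the adjusted p of the 9 probes lay between 0.808 and 0.934. At an unadjusted p under 0.05, 2507 probes of the array passed (6.11%). Apoc3, Slc2a5 and Slc11a2 were higher in LOI(+) at an unadjusted p under 0.05, 3 of 9 probes against 3.82% of all probes in that direction, and 0 of the 9 were lower, against 2.3%. The same 3 had every LOI(+) array above every LOI(-) array, which held for 6.28% of all probes. None had every LOI(+) array below, which held for 5.06%, and 11.3% of all probes were without overlap in either direction. The median difference of the 9 probes was 0.26, and that of all probes was 0.0023. In bulk RNA of this kind fewer cells of a type and less RNA per cell cannot be told apart.

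**Figure D1:**
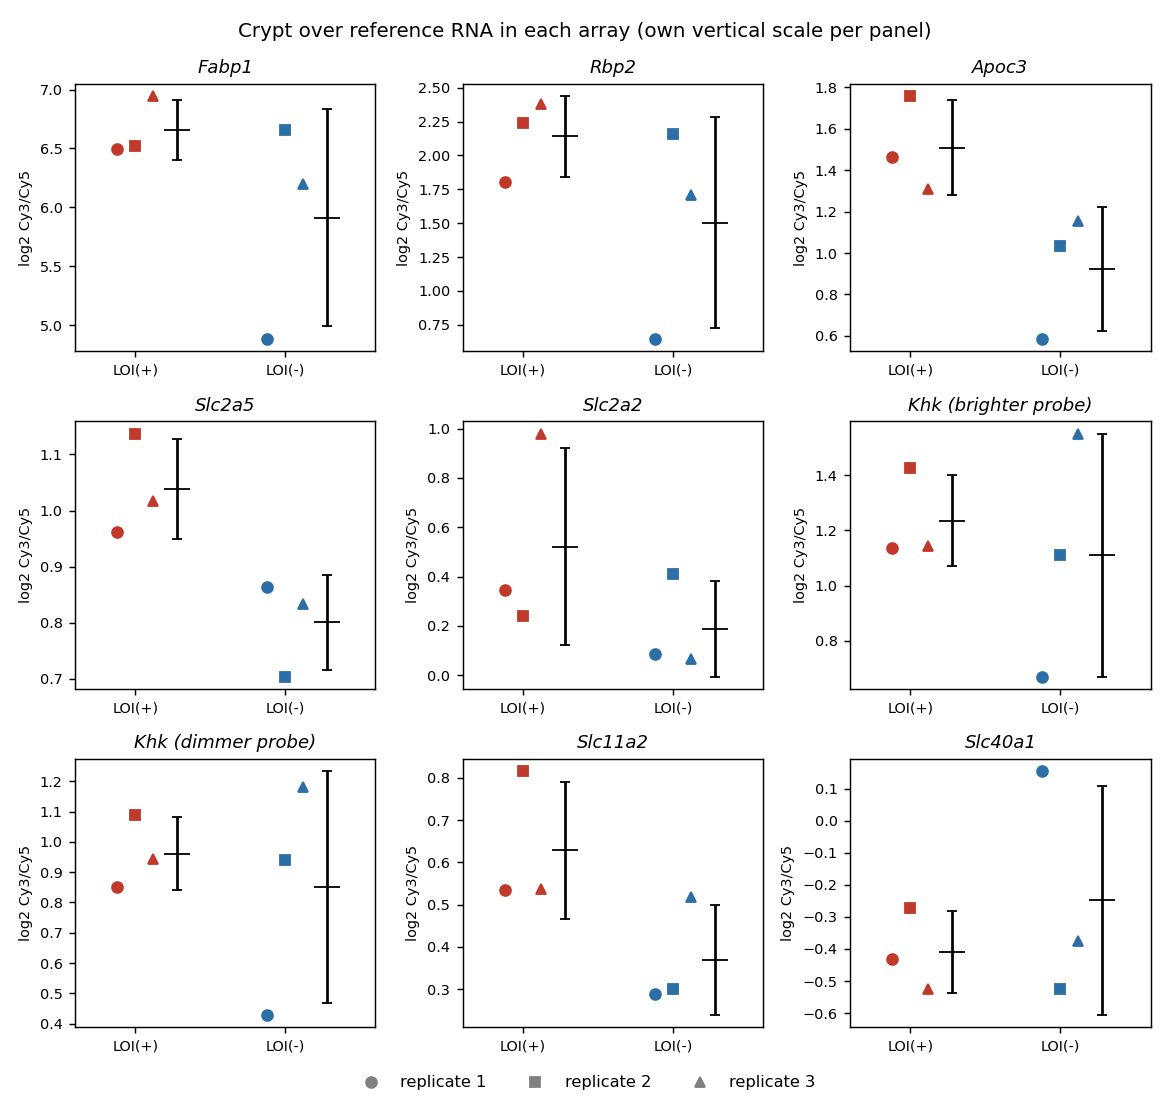
Log2 ratio of crypt over reference RNA for each of the 9 probes, with LOI(+) on the left and LOI(-) on the right of each panel. Each point is 1 mouse (circle, square and triangle for replicates 1, 2 and 3), the bar is the group mean with its SD (n = 3), and each panel has its own vertical scale. LOI(-) 1 is the lowest point for Fabp1, Rbp2, Apoc3, both Khk probes and Slc11a2, and the highest for Slc40a1.

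Among the fat and vitamin A genes the probes of Rbp2 and Apoc3 are shown, because these 2 genes, after Fabp1, had the largest differences of the 8. They are given 5′ to 3′ as the array files hold them.
Rbp2 probe A_66_P114382: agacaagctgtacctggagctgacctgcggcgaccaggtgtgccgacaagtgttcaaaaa
Apoc3 probe A_66_P125337: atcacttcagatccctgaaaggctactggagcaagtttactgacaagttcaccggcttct

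Fabp1, the fatty acid binding protein of liver and upper intestine, lies on chr6:71199879-71205034 (GRCm38.p6). Its log2 ratio was 6.49, 6.52 and 6.95 in LOI(+) 1, 2 and 3, against 4.88, 6.66 and 6.20 in LOI(-) 1, 2 and 3. LOI(-) 1 stood below the other 5 arrays, LOI(-) 2 stood above 2 of the LOI(+) arrays, and the groups overlapped. The means were 6.65 ± 0.25 in LOI(+) and 5.91 ± 0.92 in LOI(-) (SD, n = 3 each), and the difference was 0.74 ± 0.42 (SE), adjusted p 0.827 in limma. Without LOI(-) 1 it was 0.23, and without LOI(-) 2 it was 1.12.

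Rbp2, which binds retinol inside enterocytes, lies on chr9:98490537-98509771. It had log2 ratios of 1.81, 2.24 and 2.38 in LOI(+) 1, 2 and 3, against 0.65, 2.16 and 1.71 in LOI(-) 1, 2 and 3. The order of the arrays was close to that of Fabp1, with LOI(-) 1 again the lowest and LOI(+) 3 the highest, and the groups overlapped. The group means were 2.14 ± 0.30 in LOI(+) and 1.50 ± 0.78 in LOI(-) (SD, n = 3 each). The difference was 0.64 ± 0.37 (SE), adjusted p 0.829 in limma, and it was 0.21 without LOI(-) 1 and 0.96 without LOI(-) 2.

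Apoc3, an apolipoprotein of the fat particles that enterocytes and liver secrete, lies on chr9:46233050-46235636. Its log2 ratio was 1.46, 1.76 and 1.31 in LOI(+) 1, 2 and 3, against 0.59, 1.03 and 1.15 in LOI(-) 1, 2 and 3. All LOI(+) arrays were above all LOI(-) arrays, by 0.15 at the narrowest, and LOI(-) 1 was the lowest. Its Cy3 signals were dim, 545, 604 and 537 scanner units in LOI(+) 1, 2 and 3, against 493, 510 and 510 in LOI(-) 1, 2 and 3. The 95th percentile of the negative controls in Cy3 was between 439 and 449. The means of 1.51 ± 0.23 in LOI(+) and 0.92 ± 0.30 in LOI(-) (SD, n = 3 each) gave a difference of 0.58 ± 0.17 (SE), a fold of 1.50, with a 95% interval from 0.18 to 0.99. The adjusted p in limma was 0.808. Without LOI(-) 1 the difference was 0.41.

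Both channels were also read on their own. The Cy3 mean signal of Fabp1 was 7100, 14092 and 11646 scanner units in LOI(+) 1, 2 and 3, against 2150, 8573 and 5494 in LOI(-) 1, 2 and 3. Its Cy5 signal, which reads the same reference RNA on every array, was 473, 621 and 534 in LOI(+) 1, 2 and 3, against 429, 532 and 484 in LOI(-) 1, 2 and 3. The Cy5 signal was highest where the Cy3 signal was highest and lowest where that was lowest for Fabp1, and likewise for Rbp2 and Slc2a2, whose spots were dim, while the other 6 probes did not share both ends. The part of one channel in the reading of the other was not tested. With the Cy3 channel alone, scaled to the 75th percentile of each array, the differences were 1.22 for Fabp1, 0.83 for Rbp2 and 0.65 for Apoc3. In that channel Apoc3 was the only 1 of the 9 probes with every LOI(+) array above every LOI(-) array, against 4.44% of all probes.

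**Figure D2:**
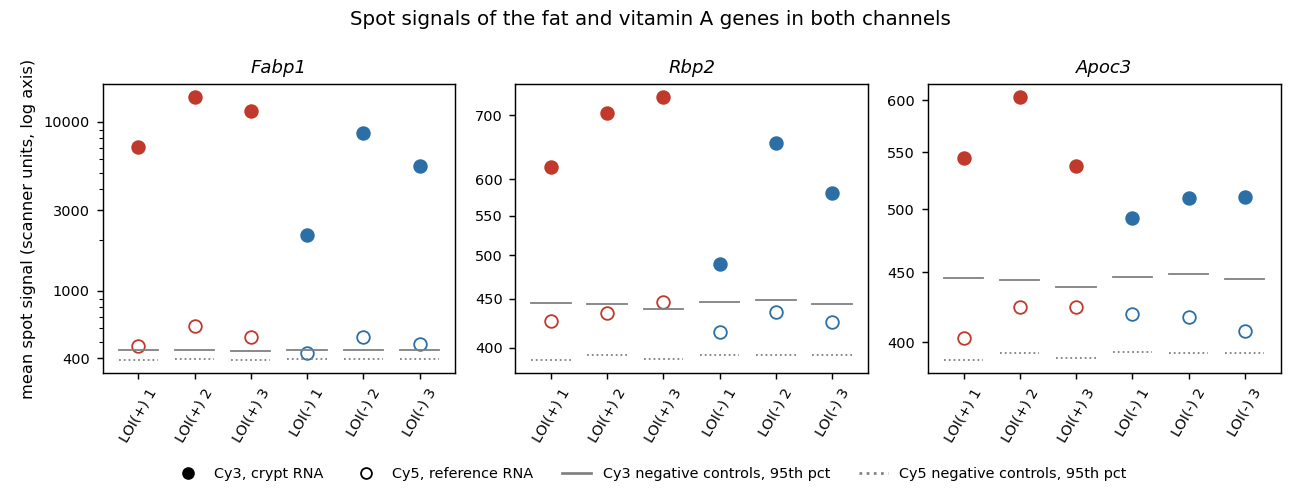
Mean spot signal in scanner units, on a log axis of its own in each panel, of Fabp1, Rbp2 and Apoc3 in the 3 LOI(+) arrays and then the 3 LOI(-) arrays. Filled points are Cy3 (crypt RNA), open points are Cy5 (reference RNA), and the solid and dotted lines are the 95th percentiles of the negative control spots in Cy3 and Cy5. Cy3 of Fabp1 spans 2150 to 14092, and Cy5 of Fabp1 moves in the same direction over 429 to 621.

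Because Fabp1 and Rbp2 shared the order of their lowest and highest arrays, the 250 bases before the start of each are shown, from RefSeq (GRCm38.p6, plus strand). A total of 5 of the 8 genes had an entry in the promoter table. The capitals mark matches, on either strand, to any of 8 short motifs, searched from 250 bases before to 50 after each start. These are the TATA box and the E-box, which are not particular to the intestine, and motifs of factors known in intestinal genes.
Fabp1 at chr6:71199629-71199878: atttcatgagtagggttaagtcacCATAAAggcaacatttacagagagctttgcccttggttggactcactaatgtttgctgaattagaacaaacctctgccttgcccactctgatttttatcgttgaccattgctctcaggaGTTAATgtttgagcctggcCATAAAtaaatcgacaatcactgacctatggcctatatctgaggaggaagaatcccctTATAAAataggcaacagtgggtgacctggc
Rbp2 at chr9:98490287-98490536: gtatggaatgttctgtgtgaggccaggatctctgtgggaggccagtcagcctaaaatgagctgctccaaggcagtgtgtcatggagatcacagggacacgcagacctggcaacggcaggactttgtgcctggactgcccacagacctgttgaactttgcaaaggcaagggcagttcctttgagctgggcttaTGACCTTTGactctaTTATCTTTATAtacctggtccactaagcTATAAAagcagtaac

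The Fabp1 window held the TATA box TATAAA at -30 from the start, the CDX motif TTTATG on the opposite strand at -226 and -88, and the HNF1 half-site GTTAAT at -107. The Rbp2 window held TATAAA at -15 and, on the opposite strand, at -38, where it overlaps the GATA motif AGATAA at -43, and the nuclear receptor motif CAAAGGTCA on the opposite strand at -58. Positions give the leftmost base of the match. Of 32851 promoters of the same length, 13.6% hold TATAAA, 11.9% TTTATG, 7.10% GTTAAT, 11.2% AGATAA and 0.478% CAAAGGTCA. The window of Khk held GTTAAT at -60 and the E-box CACGTG at -71, which 7.15% of promoters hold, and that of Slc2a2 the second GATA form TGATAA on the opposite strand at -156, which 9.05% hold. The other nuclear receptor form, CAAAGTCCA, is in 0.475% of promoters and in 0 of the 5 windows. TATAAA was the only motif that both the Fabp1 and the Rbp2 window held.

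Among the sugar genes the 2 probes of Khk are printed because they read the same gene with different sequences. They are given 5′ to 3′ as the array files hold them.
Khk probe A_66_P140966: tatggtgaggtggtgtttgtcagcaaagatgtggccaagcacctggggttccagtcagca
Khk probe A_66_P104285: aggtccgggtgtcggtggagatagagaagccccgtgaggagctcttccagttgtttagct

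Slc2a5 encodes GLUT5, the fructose transporter of the enterocyte surface, and lies on chr4:150119344-150144168. It had log2 ratios of 0.96, 1.14 and 1.02 in LOI(+) 1, 2 and 3, against 0.86, 0.70 and 0.83 in LOI(-) 1, 2 and 3. All LOI(+) arrays were above all LOI(-) arrays, by 0.098 at the narrowest, and LOI(-) 1 was here the highest of its group. The means were 1.04 ± 0.090 in LOI(+) and 0.80 ± 0.085 in LOI(-) (SD, n = 3 each), the tightest groups among the 9 probes. The difference of 0.24 ± 0.073 (SE) was a fold of 1.18, with a 95% interval from 0.064 to 0.41 and an adjusted p of 0.808 in limma. Without LOI(-) 1 it was 0.27. In the Cy3 channel alone the groups overlapped.

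Slc2a2 encodes GLUT2, which passes sugars from the enterocyte to the blood, and lies on chr3:28697903-28728361. Its Cy3 signals were near background, between 450 and 514 scanner units against a 95th percentile of the negative controls between 439 and 449. Its log2 ratio was 0.34, 0.24 and 0.98 in LOI(+) 1, 2 and 3, against 0.085, 0.41 and 0.067 in LOI(-) 1, 2 and 3. LOI(+) 3 stood above the other 5 arrays, which overlapped. The difference was 0.33 ± 0.20 (SE), adjusted p 0.832 in limma, and 0.10 without LOI(+) 3.

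Khk, ketohexokinase, the enzyme that phosphorylates fructose once it is inside the cell, lies on chr5:30921436-30931248. Its brighter probe, A_66_P140966, had log2 ratios of 1.14, 1.43 and 1.14 in LOI(+) 1, 2 and 3, against 0.67, 1.11 and 1.55 in LOI(-) 1, 2 and 3. The dimmer probe, A_66_P104285, had 0.85, 1.09 and 0.94 in LOI(+) 1, 2 and 3, against 0.43, 0.94 and 1.18 in LOI(-) 1, 2 and 3. Both probes put LOI(-) 1 lowest and LOI(-) 3 highest, so the LOI(+) arrays lay inside the range of the LOI(-) arrays on either. The differences were 0.13 ± 0.21 and 0.11 ± 0.18 (SE), with 95% intervals from -0.37 to 0.62 and from -0.32 to 0.54, and adjusted p of 0.934 and 0.932 in limma. Without LOI(-) 1 they were -0.095 and -0.099.

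The iron genes had differences of opposite sign. Slc11a2 encodes DMT1, which brings iron into the enterocyte from the gut lumen, and lies on chr15:100387898-100424209. It had log2 ratios of 0.53, 0.82 and 0.54 in LOI(+) 1, 2 and 3, against 0.29, 0.30 and 0.52 in LOI(-) 1, 2 and 3. The groups did not overlap, with a gap of 0.016 between LOI(+) 1 and LOI(-) 3. The difference was 0.26 ± 0.10 (SE), a fold of 1.20, with a 95% interval from 0.016 to 0.50 and an adjusted p of 0.810 in limma. Without LOI(+) 2 it was 0.17.

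Slc40a1 encodes ferroportin, the exporter that hands iron on to the blood and that macrophages and liver also use, and lies on chr1:45908070-45926532. Its log2 ratio was -0.43, -0.27 and -0.53 in LOI(+) 1, 2 and 3, against 0.15, -0.52 and -0.37 in LOI(-) 1, 2 and 3. LOI(-) 1 was the highest array and the only 1 above 0, and the other 5 overlapped. The difference was -0.16 ± 0.17 (SE), adjusted p 0.892 in limma, and it was 0.039 without LOI(-) 1. The summed Cy3 signal of 12 measured macrophage markers was 76783, 135570 and 185970 in LOI(+) 1, 2 and 3, against 324904, 102148 and 229362 in LOI(-) 1, 2 and 3. LOI(-) 1 was the highest here too, but LOI(+) 3, lowest for Slc40a1, had a larger sum than LOI(+) 1, LOI(+) 2 and LOI(-) 2. All 12 markers were above the negative controls on all arrays. The part of macrophages in the Slc40a1 level was not tested.

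**Figure D3:**
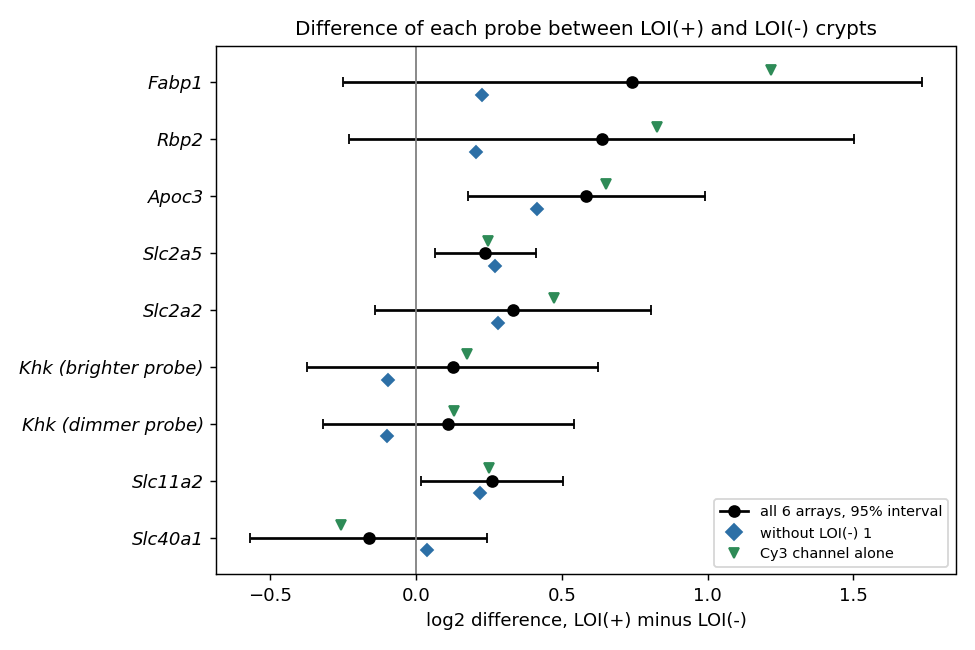
Difference of each of the 9 probes, LOI(+) minus LOI(-), on the log2 scale. Black points are the values from all 6 arrays with their 95% intervals, blue diamonds the values without LOI(-) 1, and green triangles the values of the Cy3 channel alone. The intervals of Apoc3, Slc2a5 and Slc11a2 lie above 0 before adjustment, and leaving out LOI(-) 1 brings Fabp1 to 0.23 and Rbp2 to 0.21 and takes both Khk probes below 0 and Slc40a1 above it.

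A single wild-type mouse, LOI(-) 1, set much of the spread. It had the lowest value of 5 of the 8 genes, Fabp1, Rbp2, Apoc3, Khk and Slc11a2, and the highest of Slc40a1. Relative to the mean of the other LOI(-) mice it was at -1.55 for Fabp1, -1.29 for Rbp2, -0.66 for the brighter Khk probe, -0.51 for Apoc3 and -0.12 for Slc11a2. Without it 7 of the 9 probes were higher in LOI(+), against 52.0% of all probes, and Apoc3 and Slc2a5 were at an unadjusted p under 0.05, against 3.04% of all probes. LOI(+) 2 and LOI(+) 3 had the highest value of 3 genes each.

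The roles differed in how the arrays spread. Averaged after each gene was centred on its mean over the arrays, the 3 fat and vitamin A genes stood at 0.15, 0.40 and 0.44 in LOI(+) 1, 2 and 3, against -1.07, 0.17 and -0.086 in LOI(-) 1, 2 and 3. The 3 sugar genes stood at -0.0015, 0.12 and 0.23 in LOI(+) 1, 2 and 3, against -0.28, -0.074 and 0.0014 in LOI(-) 1, 2 and 3. The 2 iron genes stood at -0.033, 0.19 and -0.080 in LOI(+) 1, 2 and 3, against 0.14, -0.20 and -0.012 in LOI(-) 1, 2 and 3. The groups overlapped in all roles, and LOI(-) 1 was lowest in the first 2 roles.

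Position along the gut was read from other genes. Of 14 measured genes known for the upper small intestine, 12 had a higher mean in LOI(+) and 2 a lower one. Over all named genes the share with a higher mean was 52.8%, which also stands beside the counts of the lists below. The median difference of the upper genes was 0.18, and 0 passed the adjusted test. Among them Sct, Slc5a1 and Slc46a1 were near 0, at 0.0058, 0.013 and 0.016. Pdx1, at -0.0095, was above the negative controls on only 3 arrays. Averaged and centred in the same way, the 13 upper genes with a value on every array stood at -0.032, 0.18 and 0.14 in LOI(+) 1, 2 and 3, against -0.16, -0.065 and -0.064 in LOI(-) 1, 2 and 3, without overlap. Of 14 measured genes of the lower small intestine, 0 had a higher mean in LOI(+) and 14 a lower one. The median was -0.24, and 0 passed the adjusted test. Among them Amn, Fgf15 and Nr0b2 were near 0, at -0.0019, -0.0066 and -0.025. The 13 lower genes with a value on every array stood at -0.23, -0.12 and -0.097 in LOI(+) 1, 2 and 3, against 0.33, -0.15 and 0.27 in LOI(-) 1, 2 and 3. Of the 14 upper genes 9, and of the 14 lower genes 3, also stand in the pathway or enteroendocrine lists, so these counts are not independent of those. Both lists were also written with earlier results of these data known, so the counts do not come from a blind choice. The upper minus the lower mean was 0.20, 0.30 and 0.24 in LOI(+) 1, 2 and 3, against -0.49, 0.090 and -0.33 in LOI(-) 1, 2 and 3. LOI(-) 1, lowest for Fabp1 and Rbp2, was lowest in the upper genes and highest in the lower ones. LOI(-) 2, with Fabp1 and Rbp2 within the LOI(+) range, had its lower genes within that range but its upper mean below every LOI(+) array. LOI(-) 3 had a lower-gene mean of 0.27, near that of LOI(-) 1, while its Fabp1 was at 6.20 and its Khk was the highest of all arrays. Without LOI(-) 1 the medians were 0.11 for the upper and -0.19 for the lower genes. The part of position in the levels of the 8 genes was not tested.

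Among the genes of smallest p in these lists were Ada, Cck, Gip and Trpv6 for the upper and Slc10a2, Nr1h4, Tcn2, Pyy and Fabp6 for the lower small intestine, each with an adjusted p between 0.808 and 0.823 in limma. Gip, a hormone of the upper gut, differed by 0.65 ± 0.26 (SE). Slc10a2, the bile acid transporter of the ileum, had log2 ratios of 0.091, 0.14 and 0.17 in LOI(+) 1, 2 and 3, against 1.29, 0.54 and 0.64 in LOI(-) 1, 2 and 3. The ileal bile acid binding protein Fabp6, a relative of Fabp1, had 0.044, -0.045 and -0.099 in LOI(+) 1, 2 and 3, against 1.80, -0.069 and 0.65 in LOI(-) 1, 2 and 3, and only 4 of the 6 arrays had it above the negative controls. LOI(-) 1, where Fabp1 was lowest, had the highest Slc10a2 and Fabp6.

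Carryover of villus cells was read from 18 measured markers of villus enterocytes, all of them above the negative controls on all 6 arrays. Of these, 7 had a higher and 11 a lower mean in LOI(+), the median difference was -0.10 and 0 passed the adjusted test. The centred mean of the 17 with a value on every array was 0.0054, 0.040 and -0.071 in LOI(+) 1, 2 and 3, against -0.059, -0.016 and 0.10 in LOI(-) 1, 2 and 3, and the groups overlapped. The summed Cy3 signal of all 18 was 220346 to 264377 in LOI(+) and 214218 to 262871 in LOI(-). LOI(-) 1, at 237834, was inside both ranges, while its Fabp1 was the lowest of all arrays. The sum was not scaled between arrays. In the centred mean LOI(-) 1, at -0.059, was below every array but LOI(+) 3. The markers of smallest p were Krt20 at -0.20 ± 0.055, Dpp4 at 0.33 ± 0.13, Mep1b at -0.24 ± 0.11, Mep1a at -0.16 ± 0.073 and Cdhr5 at -0.22 ± 0.12 (SE), each with an adjusted p between 0.808 and 0.826 in limma. The LOI(-) 3 array had the highest villus mean and also the highest Khk, and its Fabp1 and Rbp2 were below those of every LOI(+) array. The part of villus cells in the levels of the 8 genes was not tested.

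**Figure D4:**
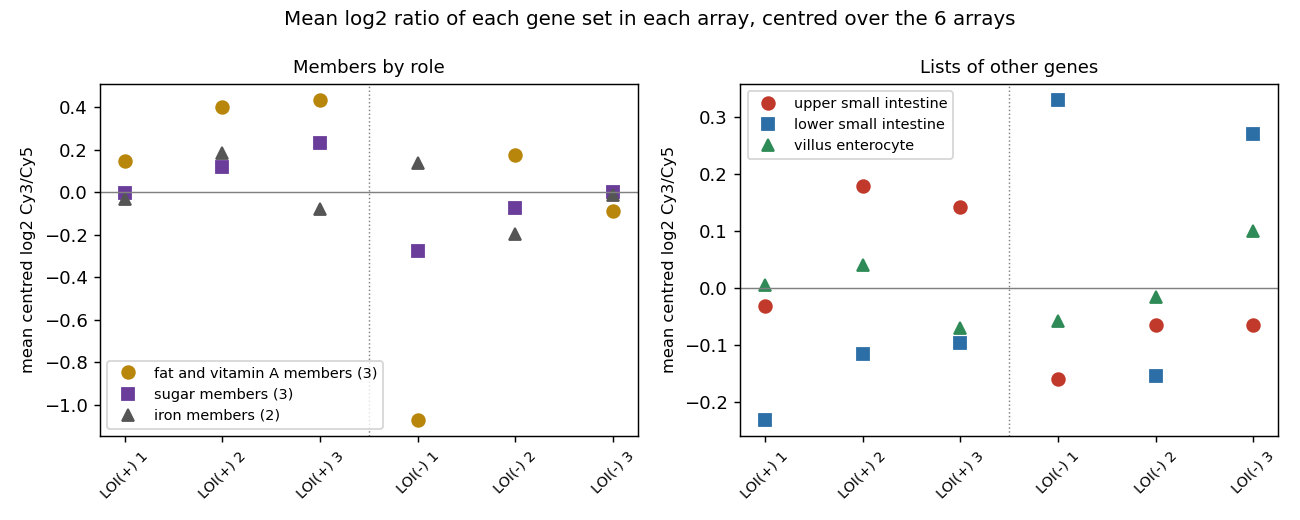
Mean log2 ratio of gene sets in each array, each gene centred on its mean over the 6 arrays, with LOI(+) left and LOI(-) right of the dotted line. The left panel holds the 8 genes by role and the right panel the lists of upper small intestine, lower small intestine and villus enterocyte genes, each panel with its own vertical scale. LOI(-) 1 stands at -1.07 for the fat and vitamin A genes and at 0.33 for the lower small intestine genes, while its villus mean of -0.059 lies among the other arrays.

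Other genes of the same pathways had medians nearer 0 than the 8 did. Of 19 measured genes of fat and vitamin A absorption, 10 were higher and 9 lower in LOI(+), with a median difference of 0.0069. Dgat1, the last enzyme of triglyceride synthesis, differed by 0.37 ± 0.099 (SE), Scarb1, a lipoprotein receptor, by -0.19 ± 0.058 (SE) and Creb3l3, a transcription factor of lipid genes, by -0.60 ± 0.28 (SE), where the spot of LOI(-) 1 was left out as an outlier. Of 16 genes of sugar absorption and fructose metabolism, 9 were higher and 7 lower, with a median of 0.058. Fbp1, an enzyme of glucose synthesis, differed by 0.44 ± 0.092 (SE) and Slc37a4, which carries glucose 6-phosphate into the endoplasmic reticulum, by 0.39 ± 0.12 (SE). Of 18 genes of iron absorption and storage, 11 were higher and 7 lower, with a median of 0.032. With LOI(-) 1 left out the medians were -0.046 for the fat and vitamin A genes, -0.027 for the sugar genes and 0.015 for the iron genes. The smallest p among the iron genes were those of Ncoa4 at -0.17 ± 0.10, Hmox1 at -0.11 ± 0.066 and Epas1 at 0.13 ± 0.089 (SE). In limma 0 genes of these 3 lists passed the adjusted test, against 0.0% of all probes, and 2 higher and 0 lower sugar genes, 1 higher and 1 lower fat and vitamin A genes and 0 iron genes had an unadjusted p under 0.05, against 4.92% of named genes higher and 2.58% lower.

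Fabp1 and Apoc3 are also liver genes, and the markers of other cells were read for that reason. Of 12 measured hepatocyte markers 6 were higher and 6 lower in LOI(+), with a median of 0.0059, and Cyp2e1 and Apof were not above the negative controls on any array. Their summed Cy3 signal was 13747 to 19287 in LOI(+) and 13609 to 17553 in LOI(-). Of 13 markers of crypt stem and dividing cells 9 were higher and 4 lower, with a median of 0.19. Of 10 Paneth cell markers 2 were higher and 8 lower, of 11 goblet cell markers 2 and 9, and of 15 enteroendocrine markers 10 and 5, with medians of -0.072, -0.11 and 0.038. Of 12 macrophage markers 2 were higher and 10 lower, of 11 smooth muscle and fibroblast markers 2 and 9, of 10 B, plasma and T cell markers 3 and 7, and of 2 erythrocyte markers 0 and 2, with medians of -0.062, -0.070, -0.025 and -0.075. The medians that moved by over 1.5 times when LOI(-) 1 was left out were those of Paneth cells at -0.16, enteroendocrine cells at 0.020, B, plasma and T cells at -0.080, smooth muscle and fibroblasts at -0.038 and hepatocytes at 0.026. In each of these lists 0 genes passed the adjusted test in limma, and the part of these cells in the levels of the 8 genes was not tested.

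Genes whose pattern over the 6 arrays was most like each role were taken from 11670 named genes above the negative controls on all arrays, by Pearson's r with the mean of the role. For the fat and vitamin A genes they were Nop56, Gpn2 and Pfkfb2, with r of 0.998, 0.990 and 0.988. For the sugar genes they were Thumpd1, Mtfr2 and Car12, each with r of 0.995, and for the iron genes Lrrc56, Msx3 and S100a5, with r of 0.988, 0.986 and 0.983. Of the 11670 genes, 80, 142 and 101 had an r over 0.9 with the fat and vitamin A, sugar and iron means. With only 6 arrays and so many genes compared, the highest r values do not single out a gene. Nop56, a protein of ribosome assembly, stood at 0.46 in LOI(+) 3 and at -0.20 in LOI(-) 1, a span of 0.66, while Fabp1 spanned 2.07 over the same arrays.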

How the data were processed

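The authors deposited the spot intensity of each channel from Agilent Feature Extraction, per the file headers. In limma 3.58.1 (R 4.3.3) the mean intensity was background-corrected by normexp with an offset of 50, and loess was run per array with a weight of 0 for control spots. Outlier spots were dropped, saturated spots were used, and the spots of a probe were averaged. Log2 Cy3 over Cy5 was fitted with lmFit and eBayes over 41006 probes, 3 mice against 3, without a block. Dyes were not swapped, and any dye effect is common to both groups. Through a RefSeq table of GRCm38.p6, 15421 probes (37.6%) were named by accession or, failing that, by gene symbol or synonym. In lists, a gene with several probes was read by the one of highest mean Cy3 signal. A deposited table of log10 values was an alternative. It matched the log10 processed ratio plus the mean log10 Cy5 of each feature, where r over 41174 features was 0.998 or more on every array, and its column medians were 2.90. The sources used here do not state the authors' own tests.

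The named genes were all probes of the 8 genes, the 3 of smallest p in each list (5 for position and villus lists), and the 3 most similar genes per role. The text leaves out those of the other cell type lists, apart from Lyz2, Cyp2e1 and Apof. It also names genes of the position lists that were near 0 or dim. A gene that this rule would name is not reported here. The genes and lists were chosen with earlier results of these data known. The fit was tested on simulated data. Alternatives varied the background step, scaling, source of values, spot and probe filters, moderation, sex label, block and the arrays used. Per the labels each array is a mouse of its own, and the number of arrays limits the precision. Replicate numbers were not taken as pairs in the main fit. Same-numbered arrays deviated from their group means with r of -0.084, -0.25 and 0.35. These values cannot exclude a pairing, since the deviations sum to 0 within each group.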

Additional observations from a re-analysis of the deposited data

How the results depend on the processing

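Under all 22 alternatives 0 of the 9 probes, 0 genes of the other lists and 0 probes of the array passed the adjusted test in limma, and between 1604 probes (without LOI(+) 2) and 3596 probes (without LOI(+) 1) had an unadjusted p under 0.05. Leaving out LOI(-) 1 turned the direction of Khk to -0.095 and -0.099 on its 2 probes and of Slc40a1 to 0.039, and no other alternative turned any direction. With each array left out in turn the difference ranged from 0.23 to 1.12 for Fabp1, 0.21 to 0.96 for Rbp2, 0.41 to 0.70 for Apoc3, 0.19 to 0.28 for Slc2a5, 0.10 to 0.47 for Slc2a2, -0.095 to 0.35 and -0.099 to 0.28 for Khk, 0.17 to 0.33 for Slc11a2 and -0.30 to 0.039 for Slc40a1. Several other settings moved a difference by over 1.5 times. Without background subtraction Rbp2 was at 0.32, Apoc3 at 0.21, Slc2a5 at 0.15, Slc2a2 at 0.088 and Slc40a1 at -0.077. With scale normalization Fabp1 was at 1.15 and Khk at 0.21 and 0.18. With median centring Slc2a2 was at 0.17. In the Cy3 channel alone Fabp1 was at 1.22 and Slc40a1 at -0.26. With only mice labelled male Khk was at 0.25 and 0.21 and Slc40a1 at -0.29. Of the 22 alternatives, the unadjusted p was under 0.05 in 21 for Apoc3, 20 for Slc2a5 and 15 for Slc11a2, and in 3 for Fabp1 and 2 for Rbp2. Without variance moderation Slc2a5 alone was under 0.05. With the replicate number as a block Apoc3, Rbp2 and Slc2a5 were under 0.05, with 2619 probes of the array, and 0 probes passed the adjusted test. The causes were not tested. Signal over background was low in Cy3 for Slc2a2 and Apoc3, and for Rbp2 in LOI(-) 1. It was low in Cy5 for Rbp2, Apoc3 and Slc2a2. This limits the precision of their ratios.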
